A study of Mus musculus with 8 samples.

Results

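Livers of young adult mice without Sirt1 were compared with livers of wild type mice of the same age. The comparison used 4 of the 8 arrays of the series, 2 described as Sirt1 knockout at 3 months (MT) and 2 described as wild type at 3 months (WT). These were all the arrays with those descriptions. The other 4 arrays came from wild type mice of 12 and 19 months, and they entered the estimate of spread, the mean signal by which probe sets were chosen for testing, and a comparison of levels near the end. RNA was measured on 1-colour Affymetrix mouse genome arrays, where probe sets, 1 or several to a gene, give a brightness on a linear scale.

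The mice of both genotypes mixed 3 strains, named as 129, FVB and Black Swiss. MT mice carried a targeted deletion of exons 5 and 6 of Sirt1 in every tissue, so effects that arise inside and outside the liver cannot be told apart. Only a small part of such mice survive to adulthood, so those on the arrays are survivors of a lethal genotype. The livers came from a collection in the morning, spread over hours, and the hour of each mouse is not given. The sources used here do not tell if the RNA of an array came from 1 mouse or several. The p-values below therefore measure the spread between these samples and no more, and some of it may be technical.

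SIRT1 is an NAD-dependent enzyme that removes acetyl groups from histones and from transcription factors, among them regulators of fuel use, stress responses and cell division. It also acts on the circadian clock. In that clock CLOCK and BMAL1 switch on the Per and Cry genes, whose proteins shut CLOCK and BMAL1 off again. NAD itself is made through NAMPT, whose gene the clock drives. The liver is the organ in which clock output, bile acids, blood proteins, lipid and glucose supply meet, so each of these was described here as a list of named genes.

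The arrays raised some points before any comparison. Xist, which silences 1 X chromosome in female cells, ranked at or above the 95.19th percentile of probe sets on all 4 arrays, while probe sets of the Y-linked genes Eif2s3y, Kdm5d and Uty were at or below the 38.78th. By contrast, the mutant mice are male according to the methods. The tissue label fitted the markers of hepatocytes: Alb, which encodes albumin, read 55184 and 52045 on the WT and 56871 and 50822 on the MT arrays. Of 15 hepatocyte markers tested 0 were called, where 0.702% of all genes tested were, and their median log2 difference was 0.11. Of these markers 13 lay above 0. MT arrays were higher without overlap in 8 and lower in 0, against 24.4% and 24% of all genes. On MT array 1 the hybridization control BioC read 3100 and 2493, against 4809 to 6639 on the other 3 arrays. The log2 ratio of the 3′ to the 5′ control probe set of beta-actin was 0.968 and 1.483 on the MT arrays. On the WT arrays it was 1.224 and 1.095. For Gapdh it was -0.616 and -0.380 on the MT and -0.595 and -0.513 on the WT arrays. The 2 MT arrays were over 2-fold apart at 4.87% of the 22519 probe sets tested, and the 2 WT arrays at 3.13%. Part of what follows rests on arrays that differ within a group, and the value of each array is therefore given for the leading genes.

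Sirt1 was read by 1 tested probe set, with signals of 589 and 539 in WT and of 615 and 713 in MT liver. Its log2 difference (MT minus WT) was 0.23 ± 0.20 (limma, SE of 2 arrays against 2, adjusted p = 0.674). Its position within the transcript was not analysed here, so it checks neither the genotype nor the labels. Of the 7 sirtuin genes 0 were called, where 0.702% of all genes tested were, so the count does not set them apart. Their log2 differences ran from -0.32 to 0.28.

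Of the 22519 probe sets tested, 116 were called at an adjusted p under 0.05 by limma, which is 0.515% of them. Of these, 56 were higher in MT liver (0.249%) and 60 were lower (0.266%), and together they named 44 genes that rose and 49 that fell. Called increases had a median of 2.24-fold and the smallest was 1.69-fold, and called decreases had a median of 2.74-fold and the smallest was 1.68-fold. Over 4-fold were 9 probe sets that rose and 10 that fell. Signals of MT and WT arrays did not overlap at any of the 116. Of all genes tested, 24.4% had higher and 24% lower MT arrays without overlap. The calls were chosen on these same arrays, so their lack of overlap follows largely from the choice. An unadjusted p under 0.05 was reached by 3030 probe sets (13.5%), those called included. With 2 arrays against 2 an exact permutation test cannot give a p below 0.333, so single genes were not tested that way.

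**Figure D1:**
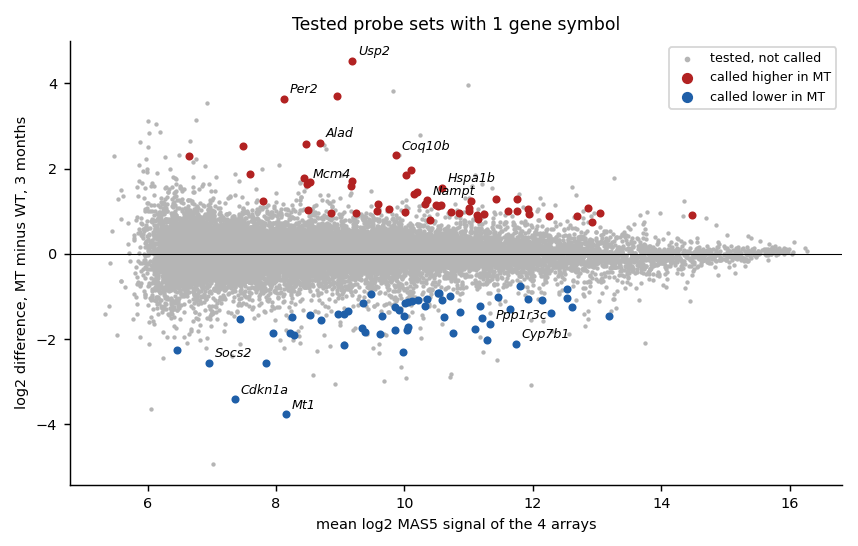
Log2 difference between MT and WT liver at 3 months (vertical axis) against the mean log2 MAS5 signal of the 4 arrays (horizontal axis), 1 point for each tested probe set with 1 gene symbol. Red and blue points are probe sets called higher and lower, and they lie at all signal levels, from Usp2 at a log2 difference of 4.53 to Mt1 at -3.76.

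How many genes were called depended on single arrays. Without WT array 1 of the 3-month group 14 probe sets were called, without WT array 2 it was 13, without MT array 1 it was 91 and without MT array 2 it was 67. Without either array of the 12-month group, whose pair lay farthest apart, 255 and 249 were called. Only 6 of the 93 genes kept their call whichever array was left out: Per2, Usp2, Dclre1a, Cyp7b1, Mrnip and Mt1. None of the 93 called probe sets, 1 for each gene, changed direction under these or the other alternatives of the fit. Leaving out 1 array could not have turned them, since their MT and WT arrays did not overlap. A change of filter or variance prior leaves the difference itself as it was, so the kept direction is no check of the calls. Other probe sets of 5 called genes (Alad, Itga1, Slu7, Srsf3 and Top1) lay on the other side of 0.

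Genes of the circadian clock and its output held the largest increases. Usp2, a ubiquitin-specific protease with a strong daily rhythm in liver, had signals of 111 and 134 in WT and of 2754 and 2855 in MT liver. Per2, a repressor of the clock, had signals of 83.2 and 75.2 in WT liver and of 1004 and 967 in MT liver. Its WT signals were close to the medians of their arrays (79.5 and 81.7), and that on WT array 2 was below. At these probe sets both genes lay far apart between the groups and close together within them. Usp2 rose by 4.53 ± 0.30 on the log2 scale (limma, SE of 2 arrays against 2, adjusted p = 0.000678) and Per2 by 3.64 ± 0.21 (adjusted p = 0.000463). Wee1, a clock output gene that holds back mitosis, had signals of 163 and 129 in WT and of 867 and 856 in MT liver, a rise of 2.57 ± 0.37 (adjusted p = 0.0244). A second probe set of each of Usp2 and Per2 differed by 3.69 and 3.54. That of Usp2 was less even within WT liver, with signals of 78.0 and 245 against 1677 and 1906 in MT liver.

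The clock list, which holds these 3 genes and was chosen with earlier results of these data known, leaned the same way. Of its 13 tested members that CLOCK and BMAL1 drive (repressors and output genes), 3 were called higher and 0 lower. The shares of all 10976 genes tested were 0.31% and 0.392% (0.702% in either direction). The 3 were Usp2, Per2 and Wee1, so this count restates them and is no separate support. A further measure counted genes whose MT and WT arrays did not overlap and differed by over 1.5-fold: 10 members were higher by this measure and 1 was lower, against 5.21% and 5.89% of all genes. The list's median log2 difference was 1.17, beside 0.0045 over all genes. The shares of calls over all genes, 0.31% higher and 0.392% lower, also stand beside the counts of called members in the lists below. Of the 13 members 12 lay above 0 and 1 below, and not every one is named here. Among those that did not pass, Dbp stood at 3.96 (signals of 252 and 1060 in WT, 6904 and 9385 in MT liver). Others were Per3 at 2.56, Cry1 at 1.67, Tef at 1.17 and Per1 at 0.91. Dbp, Per3 and Cry1 had adjusted p-values of 0.0918, 0.0630 and 0.0650. Nr1d1, the repressor REV-ERB alpha, lay the other way at -1.15, with signals of 287 and 250 in WT and of 126 and 115 in MT liver. The genes of the opposite phase lay below WT: Arntl, which encodes BMAL1, differed by -1.81 (658 and 559 against 170 and 176, adjusted p = 0.0528), Nfil3 by -0.86, Clock by -0.48 and Rora by -0.30. All 4 had lower MT arrays without overlap, against 24% of all genes, and 0 were called.

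Ciart, a clock repressor outside the tested set, had signals of 53.9 and 12.9 in WT and of 346 and 438 in MT liver. Since WT liver was below the median of its arrays, the difference is given only as a bound, at least 4.83-fold higher. Npas2, a partner of BMAL1, ran the other way with 88.0 and 128 in WT and 8.83 and 3.71 in MT liver, at least 1.29-fold lower.

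Clock proteins read DNA through the E-box, CACGTG, which reads the same on both strands, and the D-box, here TTANGTAA on either strand. The promoters of 34 of the 44 genes that rose, and of 36 of the 49 that fell, were in the RefSeq table for GRCm38.p6, each running from 250 bases before a transcript start to 50 bases after it. An E-box lay in promoters of 10 of the 34 genes (29.4%) and of 3 of the 36 (8.33%), and in 1064 of 8933 genes tested (11.9%). Of 12 genes with a promoter in the clock list that CLOCK and BMAL1 drive 5 held one (41.7%), and of 6 clock genes of the opposite phase 0 did. The 10 genes were Actg1, Alad, Coq10b, Eif4a1, Hsph1, Iars, Rbbp4, Rcan1, Rnf145 and Top1. The word holds a CG pair, and the median GC content of the promoters was 63.7% for genes that rose, 59.0% for genes that fell and 60.7% for all genes tested. Base composition thus moves with the shares of these 3 sets. For the clock list that CLOCK and BMAL1 drive it was 65.2%, and for the clock genes of the opposite phase, which held no E-box, 62.7%. The part of base composition was not tested. A D-box lay in 2 of the 34 genes, 2 of the 36 and 1.96% of all genes tested. Promoters of Per2 and Wee1 were not in the table, and those of Usp2 and Dbp held neither word in this window.

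The stretches below show where these words lie, in Ciart with 3 E-boxes, in Cry1 and Per3, which were not called, and in the called genes Coq10b, with both kinds of word, and Alad, from 1 of its 2 promoters with an E-box. Each is the 250 bases before the start (GRCm38.p6, from RefSeq), written 5′ to 3′ on the gene's own strand, with E-boxes and D-boxes in capitals. Ciart is at chr3:95882229-95882478 (minus strand), with E-boxes 116, 58 and 44 bases before the start.
Ciart: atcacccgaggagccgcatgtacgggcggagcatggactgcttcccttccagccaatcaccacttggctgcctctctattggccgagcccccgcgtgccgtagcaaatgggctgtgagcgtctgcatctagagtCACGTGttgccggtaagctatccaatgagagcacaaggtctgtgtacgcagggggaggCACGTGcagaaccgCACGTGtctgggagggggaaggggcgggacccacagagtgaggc
Cry1 is at chr10:85185055-85185304 (minus strand), with an E-box 60 bases before the start.
Cry1: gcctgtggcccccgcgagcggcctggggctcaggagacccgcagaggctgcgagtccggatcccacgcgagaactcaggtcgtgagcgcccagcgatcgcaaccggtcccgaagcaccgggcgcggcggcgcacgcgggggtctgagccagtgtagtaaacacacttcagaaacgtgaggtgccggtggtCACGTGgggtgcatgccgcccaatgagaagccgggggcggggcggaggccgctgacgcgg
Per3 is at chr4:151044666-151044915 (minus strand), with D-boxes 205 and 158 bases before the start.
Per3: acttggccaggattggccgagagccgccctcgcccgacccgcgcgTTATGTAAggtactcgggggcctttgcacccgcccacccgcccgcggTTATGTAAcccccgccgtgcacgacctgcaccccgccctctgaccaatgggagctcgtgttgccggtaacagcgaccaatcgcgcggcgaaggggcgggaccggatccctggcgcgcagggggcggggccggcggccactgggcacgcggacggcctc
Coq10b is at chr1:55052520-55052769 (plus strand), with an E-box 78 and a D-box 162 bases before the start.
Coq10b: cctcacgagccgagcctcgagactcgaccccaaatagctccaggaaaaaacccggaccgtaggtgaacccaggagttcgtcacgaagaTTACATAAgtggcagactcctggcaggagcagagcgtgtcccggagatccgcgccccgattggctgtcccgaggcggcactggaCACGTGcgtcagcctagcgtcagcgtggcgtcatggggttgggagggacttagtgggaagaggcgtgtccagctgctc
Alad is at chr4:62519910-62520159 (minus strand), with an E-box 28 bases before the start.
Alad: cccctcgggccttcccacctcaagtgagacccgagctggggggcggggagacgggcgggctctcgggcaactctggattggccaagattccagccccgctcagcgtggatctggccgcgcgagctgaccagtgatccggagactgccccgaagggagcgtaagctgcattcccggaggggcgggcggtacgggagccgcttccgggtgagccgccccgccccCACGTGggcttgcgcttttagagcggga

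**Figure D2:**
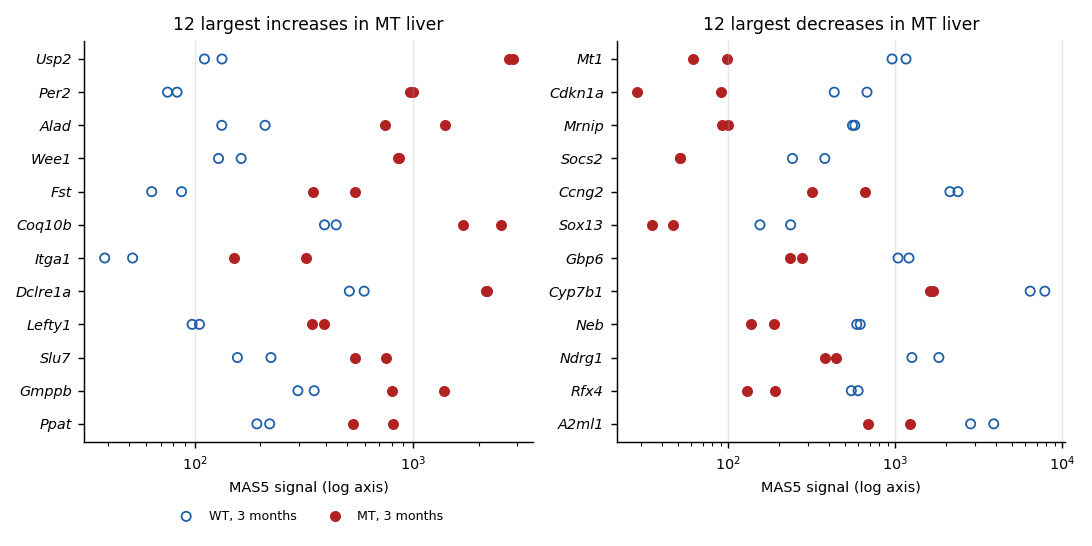
MAS5 signal (horizontal log axis) of the 12 genes with the largest called increases (left) and the 12 with the largest called decreases (right), with open blue circles for the 2 WT and filled red circles for the 2 MT arrays. The groups overlap at no gene shown, which holds for every called probe set and follows largely from the choice. Usp2 lies at 111 and 134 in WT and at 2754 and 2855 in MT liver. Mt1 lies at 1156 and 954 in WT and at 61.5 and 98.2 in MT liver.

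Outside the clock, the largest increases had varied roles. Coq10b, a protein that binds coenzyme Q in mitochondria, had signals of 445 and 393 in WT and of 1691 and 2540 in MT liver, a rise of 2.31 ± 0.28 on the log2 scale (SE, n = 2 arrays per group, adjusted p = 0.0122). Dclre1a, a nuclease for the repair of DNA crosslinks, had signals of 511 and 597 in WT and of 2163 and 2187 in MT liver, a rise of 1.98 ± 0.16 (adjusted p = 0.00193). In both genes a second probe set lay the same way, at 1.85 and 1.34. Fst, which binds and blocks activin, had signals of 87.2 and 63.7 in WT and of 347 and 540 in MT liver (2.54 ± 0.44, adjusted p = 0.0484). Its signal on WT array 2 was below the array median (81.7). Lefty1, an inhibitor of Nodal, another ligand of that family, had signals of 97.5 and 105 in WT and of 392 and 346 in MT liver (1.86 ± 0.25, adjusted p = 0.0163). Those were the 2 called of 23 tested members of the activin and TGF beta list, whose median was 0.01. Among members not called, the receptor Acvr2b differed by -1.38 and the inhibitor Smad7 by -1.23.

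Gmppb, which makes the mannose donor for glycoproteins, had signals of 353 and 297 in WT and of 1388 and 800 in MT liver (log2 difference 1.70, adjusted p = 0.0335). For 3 of the 12 largest increases another probe set of the gene did not bear the rise out. Alad, an enzyme of heme synthesis, was called at 2.61 from signals of 210 and 133 in WT and 1399 and 745 in MT liver. Its brighter probe set read 14053 and 15199 in WT and 13490 and 13462 in MT liver, a difference of -0.12. Itga1, a collagen receptor subunit, was called at a fitted 2.30 (52.0 and 38.8 against 324 and 151), at least 2.75-fold since WT liver was below the array median, while its other probe set stood at -0.39. Slu7, a splicing factor, was called at 1.77 (224 and 157 against 540 and 754) and its other 5 probe sets ran from -0.47 to 0.35. In these 3 genes the rise was thus seen at 1 probe set and not at the others.

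Enzymes that make NAD and purines included 3 called increases, and polyamine synthesis 1. Nampt, the rate-limiting enzyme of NAD salvage, read 803 and 900 in WT and 1972 and 2081 in MT liver, and rose by 1.25 ± 0.20 on the log2 scale (adjusted p = 0.0335), and its other tested probe set differed by 1.21. It was the 1 called of 14 members of NAD synthesis, whose median was -0.11, and Afmid, of the route from tryptophan, stood at -0.71. Ppat, the first committed enzyme of purine synthesis, had signals of 221 and 193 in WT and of 533 and 813 in MT liver at its leading probe set (1.67 ± 0.23, adjusted p = 0.0181). Gmps, which makes GMP, rose by 1.13 (1059 and 932 against 2208 and 2138). The other 16 purine genes tested had 0 calls, and the list's median was 0.01. Srm, which makes spermidine, rose by 1.41 (744 and 659 against 2227 and 1550), and Azin1, which protects the polyamine enzyme Odc1, stood at 0.74 with an adjusted p of 0.0550. In pyrimidine synthesis Ctps stood at 1.81 (adjusted p = 0.0846).

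DNA replication genes held 1 call, and 21 of 26 lay above 0. Mcm4, a subunit of the helicase that opens DNA for copying, rose by 1.65 ± 0.24 on the log2 scale (243 and 169 against 622 and 649, adjusted p = 0.0252). Of 26 tested genes of the MCM helicase and S phase, 11 were higher by over 1.5-fold without overlap and 0 were lower, against 5.21% and 5.89% of all genes, and the median was 0.44. Mcm6 stood at 1.87 and Orc1 at 1.58, but in both the WT arrays were far apart (186 and 39.8 for Mcm6, 130 and 17.8 for Orc1). Mcm2 stood at 1.56 with MT arrays at 987 and 375, and Ccne2, the cyclin that opens S phase, was at least 2.34-fold higher (53.9 and 80.2, below the array medians, against 157 and 226). Mitosis genes were mostly too dim to test: 8 of 23 on the array were tested and 0 were called. Of these 8 genes 6 lay above 0 and 2 below, with a median of 0.24, but the 2 WT arrays were themselves 0.85 apart. Ube2c stood at 0.88, and the 2 below 0 were Cdca8 at -0.51 and Cenpa at -0.50. Hells, a helicase of replicating chromatin outside the tested set, was at least 2.09-fold higher.

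Ribosome assembly genes held no call, and most lay above WT. Of 29 tested genes, 0 were called, 26 lay above 0, and 20 had higher MT arrays without overlap, which held for 24.4% of all genes tested. The median was 0.42, and 7 members were higher by over 1.5-fold without overlap while 0 were lower, against 5.21% and 5.89% of all genes. Rrp12, an export factor of ribosome subunits, was at least 1.94-fold higher, with WT signals below the array medians, and Nop56, a core protein of the small nucleolar particles, at 1.24 (300 and 313 against 710 and 741, adjusted p = 0.0528). Nop2 stood at 0.82 and Mybbp1a at 0.80. The proteins of the finished cytosolic ribosome had a median of -0.01 over 39 genes, and those of the mitochondrial ribosome 0.05 over 54. Called genes of RNA handling that rose were Srsf3 (1.18), Top1, a topoisomerase, and Eif4a1 (0.75), a helicase of translation, together with Iars (1.17), the isoleucine tRNA ligase, and Kpna2 (1.30), a carrier of proteins into the nucleus. Srsf3 and Top1 each had a probe set on the other side of 0, at -0.34 and -0.11.

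Cytosolic chaperones held 3 genes with a called probe set. At the probe set that stands for a gene in the lists 1 of 21 was called higher, against 0.31% of all genes. Hspa1b, an inducible HSP70, had signals of 735 and 1098 in WT and of 2178 and 3163 in MT liver at its called probe set, a rise of 1.55 ± 0.24 on the log2 scale (SE, n = 2 arrays per group, adjusted p = 0.0335). Hsph1, its exchange factor, rose by 0.97 (1257 and 1387 against 2696 and 2477), and Dnaja1, a cochaperone, by 1.07 (5036 and 5266 against 11312 and 10390). Of 21 tested members, 12 had higher MT arrays without overlap and 1 had lower ones, against 24.4% and 24% of all genes, and the median was 0.54. Members not called included Hspa8 at 0.67, Chordc1 at 0.68 and Hsp90aa1 at 0.58 (adjusted p = 0.0764). Hspb1, a small heat shock protein, lay the other way at -0.72.

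Chaperones of the endoplasmic reticulum differed between the MT arrays. Creld2 stood at 1.86 (1161 and 1135 in WT, 5627 and 3070 in MT liver), Manf at 1.38 (4069 and 4026 against 12294 and 9003) and Hspa5, the master chaperone BiP, at 0.84. Dnajb9, a cochaperone of BiP, read 2877 and 3217 in WT and 5666 and 6532 in MT liver. None of these 4 passed, with adjusted p-values of 0.0654 (Dnajb9), 0.0683 (Hspa5), 0.0705 (Manf) and 0.125 (Creld2). Over the 22 tested members the median was 0.43 on MT array 1 and 0.00 on MT array 2. Called genes of the secretory path were Hspa13 (1.08), Syvn1 (0.81), the ubiquitin ligase that clears misfolded proteins, Sec23b (1.23), a coat protein of export vesicles, and Srprb (1.24), of the signal recognition receptor. The lists of ribosome assembly, cytosolic chaperones and replication kept their side of 0 on each MT array, as the plot of list medians shows.

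**Figure D3:**
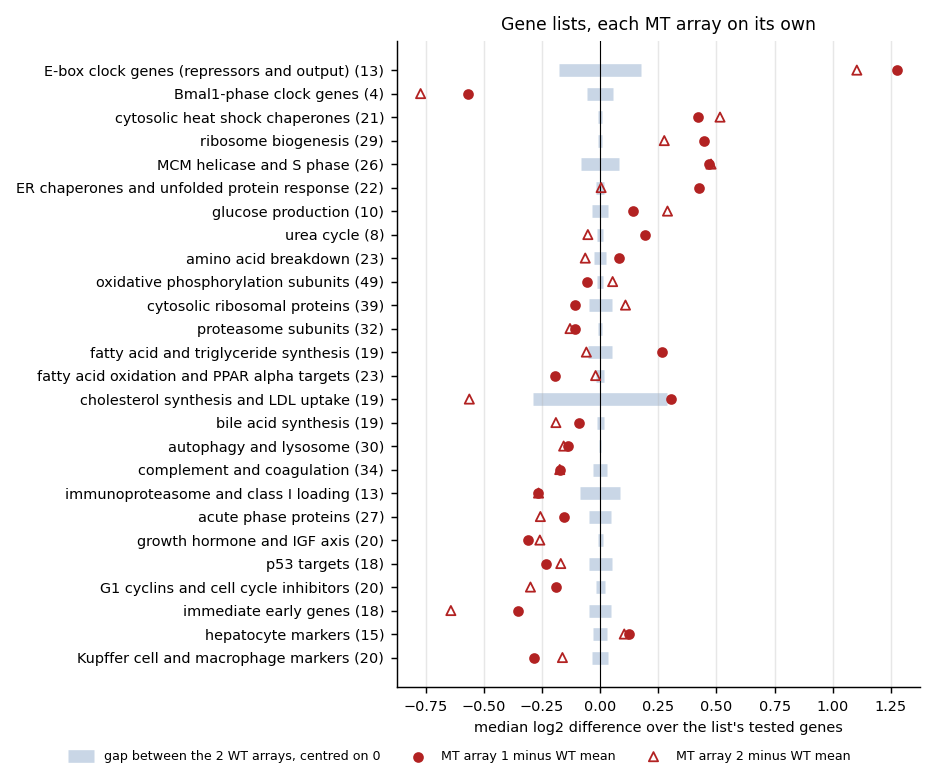
Median log2 difference from the WT mean over the tested genes of 26 lists (number in brackets) for MT array 1 (filled circle) and MT array 2 (open triangle), with a bar as wide as the median gap between the 2 WT arrays. Clock output, heat shock and ribosome assembly lie above 0 on both arrays, immediate early genes and acute phase proteins below, and cholesterol synthesis lies at 0.30 on 1 array and -0.56 on the other.

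The largest decreases were in metal binding and cell cycle arrest. Mt1, a metallothionein that holds zinc and copper, had signals of 1156 and 954 in WT and of 61.5 and 98.2 in MT liver at its called probe set, and fell by 3.76 ± 0.33 on the log2 scale (adjusted p = 0.00279). The signal on MT array 1 was below the array median (81.5), so the size of this fall is uncertain. The brighter probe set of Mt1 stood at -2.10 and Mt2, its neighbour, at -3.08 (14846 and 9125 against 1195 and 1594, adjusted p = 0.0532). The zinc transporters were near WT. Of 13 tested genes of metallothioneins and zinc transport 2 were lower by over 1.5-fold without overlap, against 5.89% of all genes. Both were metallothioneins, and the largest among the rest was Slc39a10 at 0.46.

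Cdkn1a, the cell cycle inhibitor p21, had signals of 675 and 430 in WT and of 90.8 and 28.4 in MT liver, and fell by 3.41 ± 0.53 (adjusted p = 0.0335), with its brighter probe set at -2.01. At the called probe set the signal on MT array 2 was below the array median (82.8), so the size of the fall is uncertain. Ccng2, a cyclin of arrested cells, fell by 2.30 ± 0.32 (2118 and 2368 against 316 and 653, adjusted p = 0.0205). Fas, a death receptor, fell by 1.24 (1466 and 1390 against 558 and 656). Of 18 tested p53 targets 12 lay below 0, with a median of -0.28. Apart from Cdkn1a and Fas they were not called: Bbc3 stood at -0.79, Mdm2 at -0.54 and Trp53inp1 at 0.61. In the list of G1 cyclins and inhibitors Gadd45g stood at -2.16 (896 and 1042 against 210 and 222, adjusted p = 0.181) and Ccnd1 at 1.14. Mrnip, a partner of the break repair complex MRN, fell by 2.57 ± 0.19 (553 and 571 against 90.9 and 99.0, adjusted p = 0.000891). Apart from Mrnip and Dclre1a, DNA repair held no call among 30 tested genes, with a median of 0.06.

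Immediate early genes, which answer growth factors and stress within minutes, held no call. Of 18 tested, 12 lay below 0 and 6 above, and 5 were lower by over 1.5-fold without overlap and 0 were higher, against 5.89% and 5.21% of all genes. The median was -0.45. Egr1 stood at -1.57 with MT arrays at 4979 and 1423 and WT arrays at 8611 and 7226. Socs3 stood at -1.21 and Dusp1 at -1.07 (adjusted p = 0.118 and 0.299). Growth hormone signalling held 1 gene with a called probe set, and 0 calls at the probe sets that stand for genes in the lists. Socs2, which growth hormone induces and which shuts its receptor down, had signals of 242 and 378 in WT and of 51.7 and 51.2 in MT liver at the called probe set, and the fitted log2 difference was -2.56 ± 0.29 (adjusted p = 0.0115). Both MT signals were below the median of their arrays, so the fall is given as a bound, at least 3.68-fold. Its other 3 probe sets ran from -1.73 to -0.69. Cish, a related inhibitor, stood at -1.34, Stat5b, the transcription factor of the pathway, at -0.90 (adjusted p = 0.0528), Igfbp1 at -1.35 and Igf1 at -0.30. Of the 20 tested members 15 lay below 0, and Igf2 was at least 1.22-fold higher, with WT signals of 17.6 and 63.3 below the array medians and MT signals of 90.0 and 107. Erbb3, a receptor of the EGF family, fell by 1.05 (5533 and 5719 against 2878 and 2564).

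**Figure D4:**
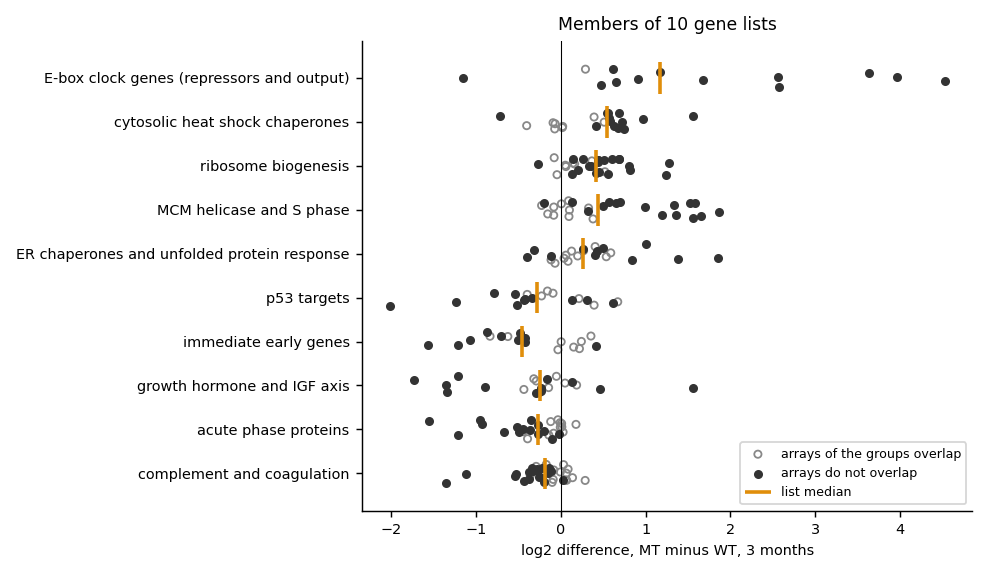
Log2 difference (MT minus WT) of each tested gene in 10 lists, with filled points where the arrays of the groups do not overlap and an orange line at the list's median. The clock list reaches 4.53 with Usp2 and has 1 gene below 0, Nr1d1 at -1.15, while the acute phase list has 23 of 27 genes below 0.

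Metabolic genes that fell had varied roles. Cyp7b1, an oxysterol hydroxylase of the alternative bile acid route, had signals of 7842 and 6406 in WT and of 1670 and 1620 in MT liver, and fell by 2.11 ± 0.15 on the log2 scale (adjusted p = 0.000748). It was the 1 called of 19 tested genes of bile acid synthesis, 14 of which lay below 0 with a median of -0.15. Cyp7b1 is also in the list of male-biased liver genes, of which 13 were tested, with 1 call, 10 below 0 and a median of -0.53. That median was -0.29 on MT array 1 and -0.96 on MT array 2. In it Elovl3, a fatty acid elongase, stood at -2.03 and the bile salt carrier Slco1a1 at -0.99, and Serpina4-ps1, a serpin pseudogene, was at least 8.72-fold lower (579 and 887 against 48.9 and 11.1, adjusted p = 0.0613). The 24 tested female-biased genes had 0 calls and a median of -0.08, and the part of sex in these values was not tested. Cyp8b1 stood at -2.31 with MT arrays at 2504 and 465, and Cyp7a1, the rate-limiting enzyme of the classic route, at 1.30 with MT arrays at 5732 and 1816. Ppp1r3c, which brings a phosphatase to glycogen, fell by 1.66 (5271 and 4015 against 1492 and 1423), the 1 called of 11 glycogen genes. Clpx (-1.24), a mitochondrial protease subunit, Coq8a (-1.11), of coenzyme Q synthesis, Echdc1 (-1.48), Cda (-1.48), a cytidine deaminase, and Vnn3 (-1.76) were also called lower. Vnn1, a pantetheinase next to Vnn3, stood at -2.82 with signals of 4633 and 4388 in WT and of 271 and 1503 in MT liver. Pdk4, the kinase that spares glucose in fasting, stood at -1.15 (adjusted p = 0.102).

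Further called decreases among the largest 12 were in genes of varied roles. Sox13, a transcription factor, had signals of 236 and 155 in WT and of 46.6 and 34.7 in MT liver (fitted log2 difference -2.25, adjusted p = 0.0330), and since MT liver was below the array median this is a fall of at least 2.32-fold. Ndrg1, a stress-responsive gene, had 1819 and 1254 against 380 and 444 (-1.88, adjusted p = 0.0115), and its other 4 probe sets ran from -1.87 to -1.33. Rfx4, a transcription factor, had 544 and 598 against 190 and 130 (-1.86), and A2ml1, a protease inhibitor, 2819 and 3875 against 687 and 1217 (-1.85). These 4 genes kept the groups apart by more than the gap within either group. Gbp6, a GTPase that interferon induces, had 1036 and 1205 against 276 and 234 (-2.14, adjusted p = 0.0278), the 1 called of 30 tested interferon genes, whose median was -0.10. Neb, which encodes the muscle protein nebulin, had 615 and 587 against 188 and 137 (-1.90, adjusted p = 0.0115). Of 14 skeletal muscle markers on the array 2 were tested. Myh1, Acta1 and Tnnc2 read 354, 355 and 133 on MT array 1 and 7.24, 75.6 and 30.5 on MT array 2, with WT arrays at or below 31.2. These 3 untested markers were highest on MT array 1, and the part of muscle RNA in the fall of Neb was not tested.

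Acute phase, complement and clotting genes held 1 call. Orm3, an acid glycoprotein of the acute phase, fell by 1.55 ± 0.27 on the log2 scale (711 and 715 against 316 and 187, adjusted p = 0.0487). Of 27 tested acute phase genes 23 lay below 0, 15 had lower MT arrays without overlap and 0 higher ones, against 24% and 24.4% of all genes, and the median was -0.27. Il1r1 stood at -0.93 (adjusted p = 0.0681), Orm2 at -0.96 and Apcs at -0.44. Complement and coagulation had 0 calls in 34 tested genes, 18 of them with lower MT arrays without overlap and 1 with higher ones (24% and 24.4% of all genes), and a median of -0.18. C9, a pore subunit, stood at -1.35 and F11, a clotting factor, at -1.12 (adjusted p = 0.104 and 0.0593). All 13 tested genes of the immunoproteasome and class I loading lay below 0, and 0 were called. Psmb9 stood at -0.91 and Psmb8 at -0.86. The 32 subunits of the constitutive proteasome had a median of -0.12.

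Markers of other liver cells were measured beside these lists. In bulk tissue fewer cells of a type and less RNA per cell cannot be told apart. Of 20 tested Kupffer cell and macrophage markers 0 were called, 12 had lower MT arrays without overlap and 1 had higher ones, against 24% and 24.4% of all genes, and the median was -0.25. Mpeg1 stood at -1.01 (1326 and 1201 against 656 and 595, adjusted p = 0.0528), Clec4f at -0.24 and Cd163 at 0.63. C1qa, C1qb and C1qc, made by Kupffer cells and counted in the complement list, stood at -0.34, -0.38 and -0.44. Of 8 tested T and NK cell markers 0 were called, 6 lay below 0 and 2 above, and the median was -0.42. Gzma was at least 2.78-fold lower (190 and 275 against 65.5 and 47.5), Ccl5 stood at -1.14 and Gzmb at -0.86, while Thy1 was at least 1.22-fold higher. Of 4 tested neutrophil markers 0 were called and 3 lay above 0, with a median of 0.69. S100a8 and S100a9 stood at 0.53 and 0.97 and Lcn2 at -0.44. All 5 tested class II antigen presentation markers lay below 0 with 0 calls, and their median was -1.23 on MT array 1 and -0.13 on MT array 2, with the 2 WT arrays 0.68 apart. The part of these cells in the immune lists was not tested.

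Several large metabolic lists were near WT. The 49 subunits of oxidative phosphorylation had a median of -0.00 and ran from -0.34 to 0.50 with 0 calls. Urea cycle genes had a median of 0.11 over 8 genes, amino acid breakdown 0.01 over 23, glycolysis 0.10 over 13 and apolipoproteins 0.06 over 15, all with 0 calls. Glucose production had a median of 0.21 over 10 genes, with 8 above 0, and Gpt2, an alanine transaminase, was farthest at 0.88 (adjusted p = 0.0830). In 19 of the 61 pathway lists the 2 MT arrays lay on opposite sides of the WT mean. Cholesterol synthesis was farthest apart, with a median of 0.30 on MT array 1 and -0.56 on MT array 2, while the 2 WT arrays were themselves 0.58 apart. Fatty acid synthesis stood at 0.27 and -0.06, and Thrsp, which promotes it, at 54646 and 18917 on the MT arrays against 10513 and 17686 in WT liver. Srebf1, its transcription factor, was above WT on both (6626 and 4943 against 11751 and 10487, log2 difference 0.96, adjusted p = 0.0665). For such lists the pair of MT arrays gives no common direction.

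Other probe sets read other parts of the same transcripts on the same arrays. Of the 44 genes that rose 31 had further tested probe sets, 54 in all, and 46 of these lay on the same side and 31 were over 1.5-fold without overlap. Of the 49 that fell 26 had further ones, 43 in all, and all 43 lay on the same side, 36 of them over 1.5-fold without overlap. Ptbp1, a splicing regulator, was called at -1.73 while its other 2 probe sets stood at -0.29 and -0.09.

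Probe sets outside the tested set can hide a gene that only 1 group expresses. Besides Ciart and Hells, a further probe set of Per2, dim in WT liver (6.54 and 48.3 against 154 and 165), reached a bound of at least 1.98-fold higher, and another of Tef at least 1.79-fold higher. In the other direction a further probe set of Serpina4-ps1 was at least 4.05-fold lower (239 and 464 against 49.6 and 8.75), Ccdc30 at least 2.53-fold and Hsd3b1, a steroid dehydrogenase, at least 2.02-fold. These probe sets were not tested.

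The levels of the called genes on the 12-month and 19-month WT arrays were not used in the contrast, although those arrays share its estimate of spread. In 37 of the 44 genes that rose both MT arrays lay above all 6 WT arrays, and in 42 of the 49 that fell they lay below all 6. Over all probe sets tested the shares were 7.36% and 6.61%. The called genes were chosen by a contrast with 2 of these 6 WT arrays, from which all of them were apart, so their shares are a description and not a comparison with those of all probe sets. Not outside were 7 of the increases, namely Alad, Fst, Itga1, Slu7, Rnf145, Smlr1 and Syvn1, and 7 of the decreases, namely Mcc, Fbxo21, Klhl24, Tcp11l2, Khnyn, Ptbp1 and Ptgds. The genes that rose had a median log2 difference of 1.16 in MT mice, of 0.36 in WT mice at 12 months and of 0.63 at 19 months, each against WT mice at 3 months. For the genes that fell the medians were -1.46, -0.42 and -0.53. The 3 comparisons share the 2 arrays of WT mice at 3 months, so a deviation of those arrays enters all of them.

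**Figure D5:**
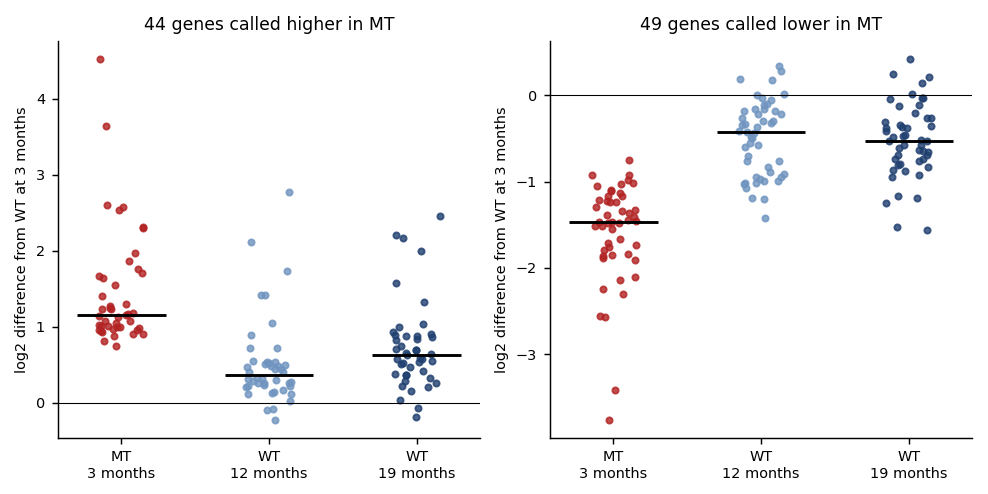
Log2 difference from WT liver at 3 months of the 44 genes called higher (left) and the 49 called lower (right) in MT liver, for MT mice at 3 months and WT mice at 12 and 19 months, with 1 point per gene and a black line at the median. Medians lie at 1.16, 0.36 and 0.63 for the genes that rose and at -1.46, -0.42 and -0.53 for those that fell, and all 3 sets are measured from the same pair of WT arrays.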

How the data were processed

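The authors deposited MAS5 intensities, linear and scaled to a common level on every array. The methods' filter on present calls was not applied, since no detection calls were used. Of 45101 probe sets, 64 controls were left out, and of the other 45037 those with 1 gene symbol (34945) were named from GEO's platform table. Groups came from the sample descriptions. Signals below 1 were set to 1 and put on the log2 scale. Probe sets in the upper 50% of mean signal over all 8 arrays (22519, from a log2 mean of 6.18) entered a limma fit (lmFit, eBayes with trend, limma 3.58.1, R 4.3.3) of all 4 groups of 2 arrays, with 4 residual degrees of freedom and 5.37 from the prior. The p-values were two-sided and adjusted by Benjamini-Hochberg over the probe sets tested, and a call needed an adjusted p under 0.05.

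In lists each gene entered by the probe set with the highest mean (10976 genes), and lists were described by counts and medians with no test. A probe set outside the tested set was described when above the array median on both arrays of 1 group and below it on both of the other, with its fold as a bound against that median. Named genes were called genes (the 12 largest each way with all arrays), Sirt1, clock genes, and called or farthest non-overlapping members of each list. The 61 pathway and 14 marker lists and their members were chosen with earlier results of these data known. Members missing from a list were not analysed here. The fit, tested on simulated data for this comparison (22519 probe sets, 200 changed), called 23% of changes of 2-fold and 70% of changes of 4-fold, and 2 unchanged probe sets. Tables and plots used Python 3.11.15 with pandas 2.3.3, numpy 2.4.6 and matplotlib 3.10.9. The number of arrays limits the precision. Alternatives changed the normalization, log transform, filter, arrays in the fit, variance prior, test, threshold and replicate block, left out each array in turn and, for list medians only, changed the probe set of a gene.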

Additional observations from a re-analysis of the deposited data

How the results depend on the processing

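Of 116 calls (56 higher, 60 lower), counts stayed within 1.5 times under quantile normalization, another log transform, other filters, the 4 arrays of 3 months alone and the added fold limit. A like count does not mean the same genes: with the 4 arrays of 3 months alone 29 of the 93 called genes lost the call. A variance prior without a trend left 9 (4 and 5), and a robust one gave 233 (115 and 118). The methods' t-test with a fold over 1.5 gave 890 (439 and 451), and 0 after Benjamini-Hochberg in either direction, where 3030 probe sets had an unadjusted limma p under 0.05. Leaving out 1 array at a time gave 13 to 255 calls, 8 to 123 of them higher and 5 to 132 lower. Without WT replicate 1 or 2 of 3 months 86 of the 93 called genes lost the call, and without MT replicate 1 or 2 it was 52 and 60. The cause of these shifts was not tested. Groups share replicate numbers, but these are only numbers: the deviations of same-numbered arrays correlated at 0.04, and with the replicate block 129 probe sets were called (56 higher, 73 lower), with 12 of the 93 genes losing the call. No called probe set turned direction under these alternatives, but leaving out 1 array or changing the filter or variance prior could not have turned one. Of 525 list medians recomputed under alternatives, 478 kept their sign and 115 moved by more than the spread between replicates.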
